A study of Mus musculus with 4 samples.

Results

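A set of 8 genes of haem and iron recycling was read, library by library, in macrophages and monocytes taken from the livers of mice with diet-induced steatohepatitis. The genes were Hmox1, Blvrb, Ftl1, Fth1, Slc40a1, Slc11a1, Cd163 and Spic, 8 of 33696 genes in the count matrices, and all 8 were found there by symbol. The set was built around the low Hmox1 level of monocytes after 24 weeks on high cholesterol. In the monocytes gated here the log2 ratio of Hmox1 at week 24, high over low cholesterol, was -1.90, and 3 of 4464 genes had a lower ratio. That ratio chose the set, so it is given as a description.

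Macrophages that clear old red blood cells take up haemoglobin and break its haem ring apart. Haem oxygenase 1, the product of Hmox1, opens the ring and frees the iron, and Blvrb codes for biliverdin reductase B. The iron is stored in ferritin, a shell of heavy (Fth1) and light (Ftl1) chains, or leaves the cell through ferroportin, the product of Slc40a1. Slc11a1 codes for NRAMP1, which pumps iron out of the phagosome, CD163 is the receptor for haemoglobin bound to haptoglobin, and SPIC is the transcription factor of iron-recycling macrophages in the splenic red pulp and in bone marrow. In the liver, Kupffer cells do this work.

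Male wild-type C57BL/6J mice, 7 weeks old at the start, were fed a diet of fructose, palmitate, cholesterol and trans-fat (FPC) that leads to steatohepatitis, and liver cells were sampled by fine-needle aspiration (FNA). P-LC24 and P-HC24 were sampled after 24 weeks on 0.05% and 1.25% cholesterol, and I-LC32 and I-HC32 came from the same arms 8 weeks later, at week 32, when both arms ate 0.05% cholesterol. Each library pooled 12 biopsies, 4 from each of 3 mice, and by the study's methods the mice sampled at week 24 were sampled again at week 32. There was 1 library per condition, so no difference below has a replicate check and none was tested. Prog is P-HC24 over P-LC24, and Int is I-HC32 over I-LC32. The letters HC and LC stand for week 32 over week 24 within the high and low cholesterol arm, so every library enters 2 of these comparisons.

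The values are unique molecular identifiers (UMIs), each a captured molecule counted at the 3' end of its transcript, summed over the cells of a class in a library and given as counts per 1000000 UMIs of that sum (CPM). Intervals are 95% exact intervals and cover counting error only, neither mice nor sampling. All values below stand in the order of week and then of cholesterol, with P-LC24 first, P-HC24 next, then I-LC32, and I-HC32 last. The 4 libraries kept 5142, 6914, 7417 and 7351 cells. Macrophages numbered 54, 403, 71 and 590, with a median depth of 25367, 21246, 22792 and 20780 UMIs per cell. Monocytes numbered 117, 152, 177 and 80, of which 54, 81, 136 and 41 were classical and 63, 68, 40 and 36 patrolling. The P-LC24 macrophage values therefore rest on the fewest macrophages. The libraries shared 17 to 41 barcodes per pair, of which 1 was a macrophage or monocyte.

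The macrophage gate was checked against marker genes, and most of its cells did not carry the Kupffer cell pattern. Clec4f, the defining Kupffer cell marker, had a UMI in 2 of 1118 macrophages. Gata6, which marks large peritoneal macrophages, had one in 836 of 1118, with shares of 59.3%, 70.2%, 67.6% and 80.2% by library. All 7 genes of the peritoneal list were detected in each library, at a summed 8454, 9130, 7785 and 11462 CPM. The Kupffer list, which holds genes shared with other macrophages such as Timd4, summed to 754, 1028, 1188 and 1396 CPM. These cells are called macrophages below, and the share of Gata6 cells moved with the libraries.

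Several members carry known regulatory letters in their own sequence, and these are shown first because they group the set. Iron regulatory proteins bind a hairpin in the leader of ferritin and ferroportin transcripts, whose loop reads CAGTG after an unpaired C. The pattern CNNNNNCAGTG was searched on the transcript strand of the annotated 5' untranslated regions, and it was found in 3 of the 8 members. Of 20702 genes with such a region, 10.4% held the pattern. Capitals mark its fixed letters in the genome build GRCm39, in Fth1 at chr19:9960095-9960119 (plus strand), in Ftl1 at chr7:45109208-45109232 (minus strand) and in Slc40a1 at chr1:45964630-45964654 (minus strand).
Fth1 leader: tttcctgCttcaaCAGTGcttgaac
Ftl1 leader: tgtcttgCttcaaCAGTGtttgaac
Slc40a1 leader: ccaacttCagctaCAGTGttagcta

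The antioxidant element bound by NRF2 and BACH1 was searched as GCTGAGTCA on both strands of the 12000 bases before each start. Hmox1 held 4 matches, Ftl1 and Fth1 held 1 each and the other 5 members held 0. Of 21757 genes, 16.4% held at least 1 match, 1.65% at least 2, and 11 genes, or 0.0506%, at least 4. The first 3 Hmox1 matches stood in a row in chr8:75810567-75810596, chr8:75810595-75810624 and chr8:75810624-75810653, and the other in chr8:75816368-75816397. These stretches include flanking bases. The matches themselves lay 9664, 9636, 9607 and 3863 bases before the start of the canonical transcript. The Ftl1 match, in chr7:45110393-45110422, lay 1103 bases before the start of its canonical transcript. The Fth1 match, in chr19:9955994-9956023, lay 4006 bases before that of Fth1. All are printed in GRCm39 with the match in capitals, and a match is a run of letters, not a shown binding site.
Hmox1 match 1: tgccttttctGCTGAGTCAaggtccggggc
Hmox1 match 2: gctgtgtgacGCTGAGTCAcggtcccgagg
Hmox1 match 3: gtctgttttcGCTGAGTCAtggttcccgtt
Hmox1 match 4: gacagattttGCTGAGTCAccctctgttcc
Ftl1 match: ggccagttctGCTGAGTCAcgctgagctca
Fth1 match: ggagcagaatGCTGAGTCAcggtggaacaa

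The members had distinct homes among the cells (plot of the 8 genes by class). Ftl1 and Fth1 were read in every class, Hmox1 and Slc11a1 were high in macrophages, monocytes and neutrophils and near background in B cells, and Blvrb was highest in macrophages and erythroid cells. Slc40a1 had its highest level in neutrophils, Cd163 mainly in dendritic cells and classical monocytes, and Spic at a low level in patrolling monocytes, macrophages and B cells. The named iron-recycling markers Slc40a1, Cd163 and Spic were thus the 3 members that macrophages and monocytes carried least.

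**Figure D1:**
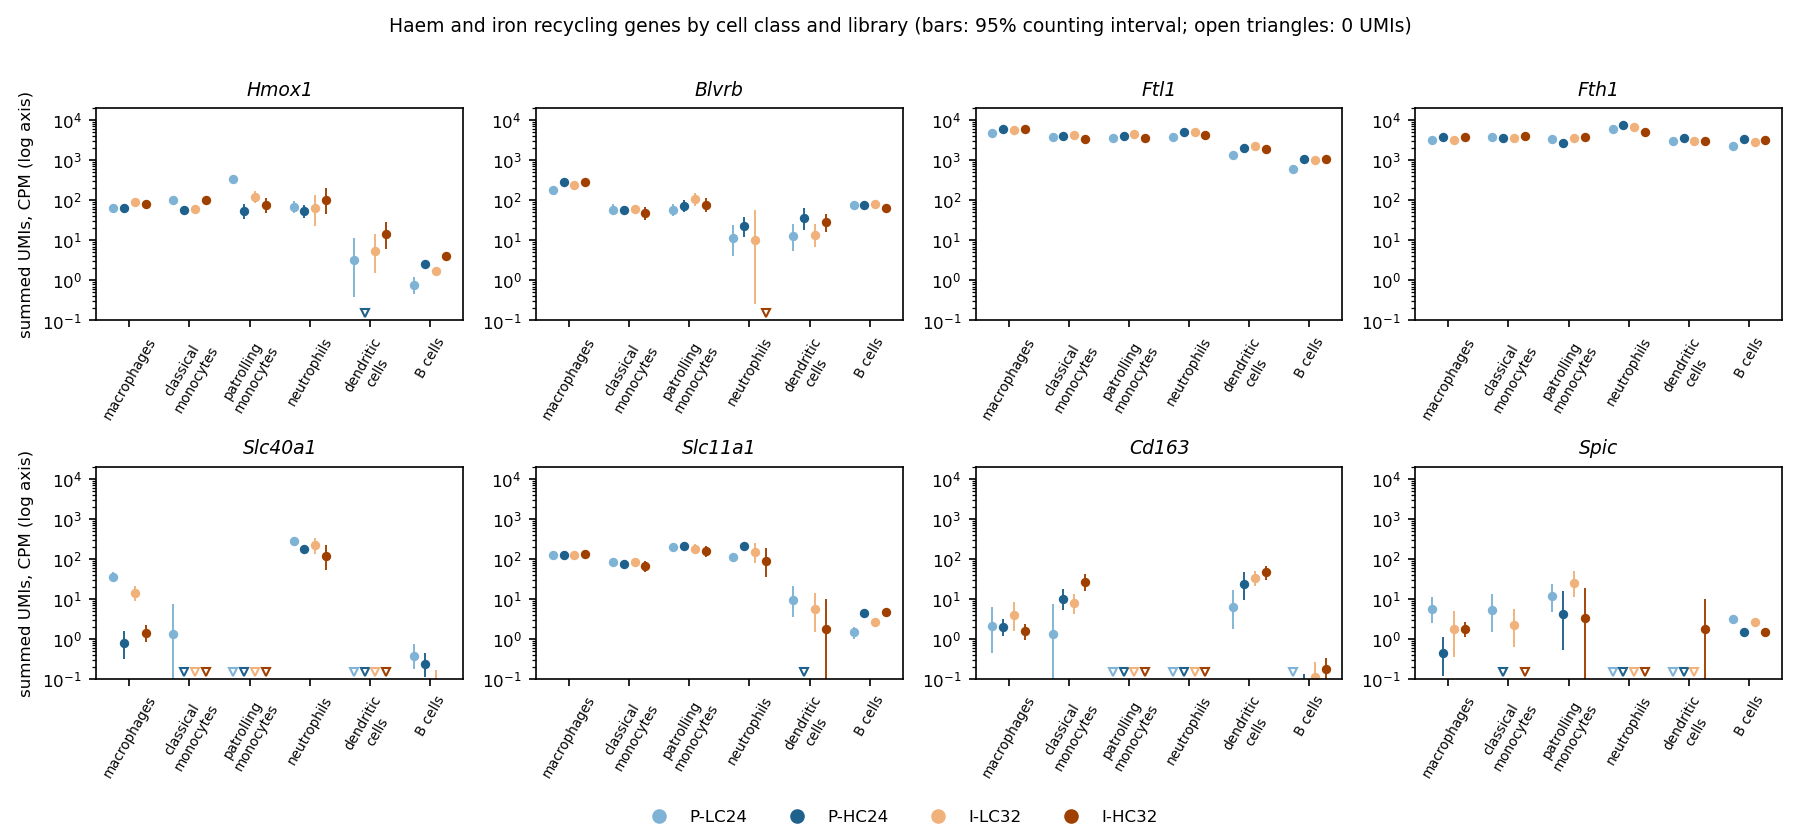
Level of each of the 8 genes in CPM (log axis) in 6 cell classes, with 1 coloured point per library, bars for the 95% counting interval and open triangles where a class had 0 UMIs. Slc40a1 is highest in neutrophils, at 117 to 276 CPM. Hmox1 in P-LC24 patrolling monocytes stands above the other libraries at 350 CPM. In classical monocytes P-LC24 and I-HC32 are both at 102 CPM.

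Hmox1, the enzyme that opens the haem ring, was read at 213 CPM (95% interval 189 to 239) in P-LC24 monocytes, from 287 UMIs in 117 cells. The other libraries had 57.0 (46.1 to 69.7), 71.1 (60.1 to 83.6) and 93.1 (74.5 to 115) CPM, from 95, 148 and 87 UMIs. P-LC24 was the high library, and I-HC32 lay above P-HC24 with intervals that did not overlap. The log2 ratio was -1.90 (-2.25 to -1.56) for Prog, 0.39 (-0.01 to 0.78) for Int, -1.58 (-1.88 to -1.29) for LC and 0.71 (0.27 to 1.14) for HC, where the median of all compared genes was -0.15, -0.01, -0.09 and 0.02. The share of monocytes with an Hmox1 UMI was far closer between libraries, at 48.7%, 42.8%, 46.3% and 50%, and 28.2%, 20.6%, 25.8% and 34.3% when each cell was thinned to 5000 UMIs. In B cells, which should lack it, 0.474% to 2.44% had a UMI. The erythroid marker list summed to 694, 279, 1373 and 98.4 CPM in monocytes and the dissociation and stress list to 3088, 2424, 4810 and 3702 CPM. Both were lower in P-HC24 than in P-LC24, as Hmox1 was, and their part in its level was not tested.

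The gap between the level and the share came from a few cells. One patrolling monocyte of P-LC24 held 129 of the 287 Hmox1 UMIs, or 44.9%, and the 3 highest cells, with 129, 35 and 18 UMIs, held 63.4%. The highest monocyte of P-HC24 had 4 UMIs, and that of I-LC32 and of I-HC32 had 9 each. Cells with at least 5 Hmox1 UMIs numbered 7, 0, 4 and 1, so the high level of P-LC24 was that of a minority of its monocytes.

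**Figure D2:**
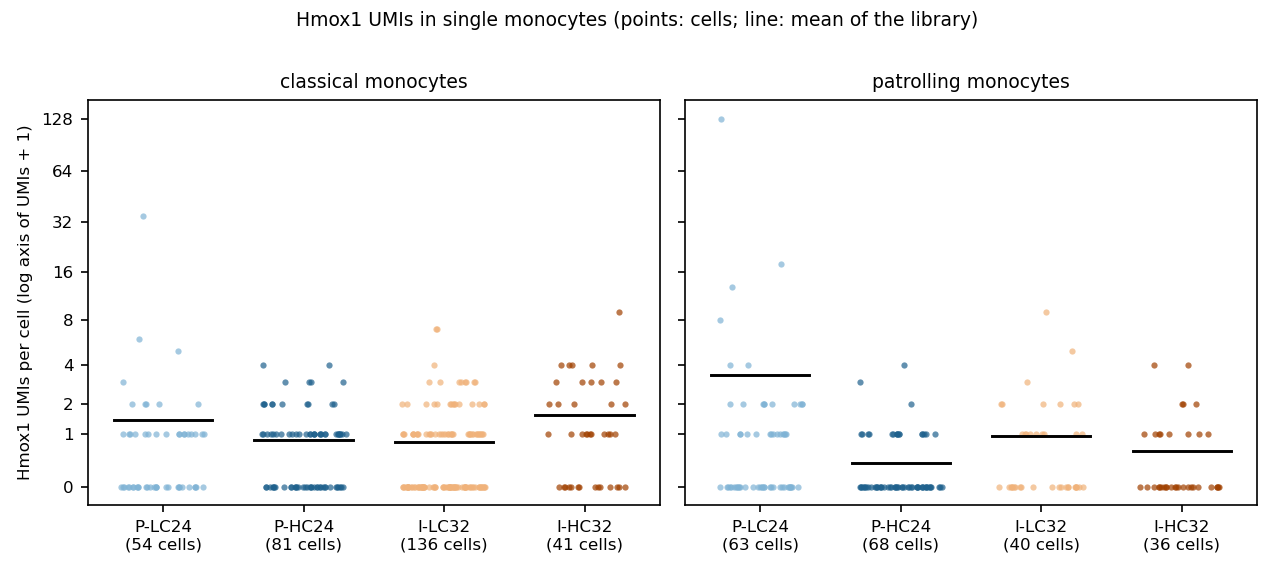
Hmox1 UMIs in each classical and each patrolling monocyte by library, on a log axis of UMIs + 1, where each point is a cell and the line is the mean. One patrolling cell of P-LC24 stands at 129 UMIs, while no monocyte of P-HC24 exceeds 4.

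Leaving out the highest cell of each library set the monocyte levels at 119, 54.8, 67.0 and 85.0 CPM and the Prog log2 ratio at -1.12 (-1.5 to -0.73), with 40 of 4444 genes below it. Without the 3 highest cells of each library the levels were 80.7, 51.5, 62.1 and 78.7 CPM and the ratio was -0.65 (-1.08 to -0.22), with 486 of 4369 genes below it. The direction stayed, and the size of the difference became smaller with each step. Both settings were chosen after the values per cell had been seen. The Int ratio hardly moved, at 0.34 (-0.08 to 0.75) and 0.34 (-0.10 to 0.77), and LC went to -0.83 and then -0.38 (-0.76 to 0.01). HC, which does not use P-LC24, was 0.63 and 0.61.

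**Figure D3:**
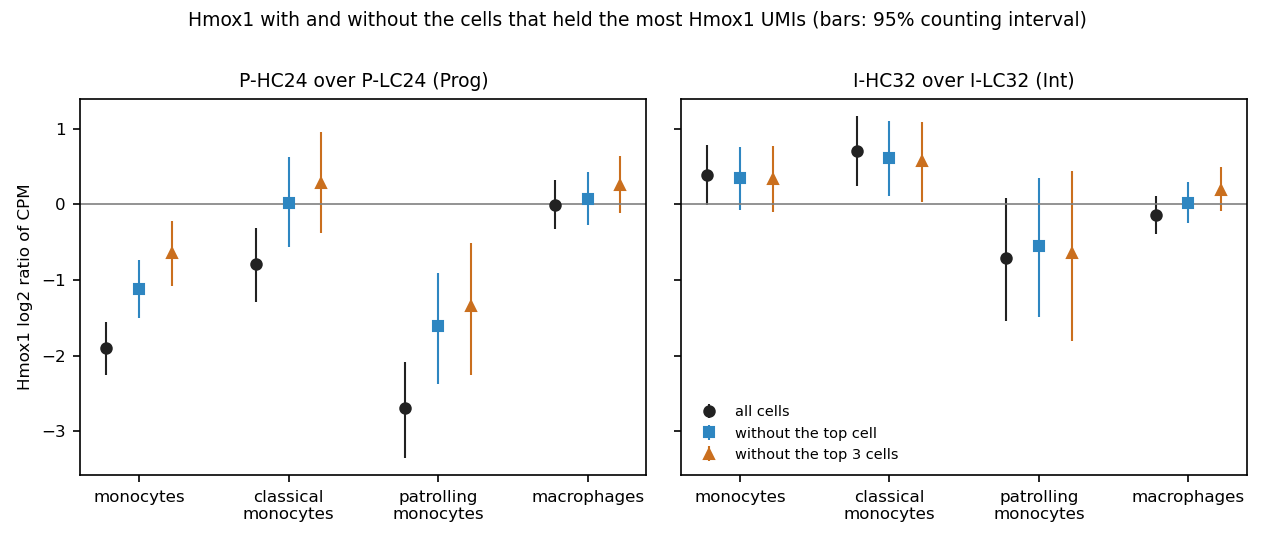
Log2 ratio of Hmox1 in Prog and Int with all cells, without the highest cell and without the 3 highest cells of each library, for monocytes, classical monocytes, patrolling monocytes and macrophages, with 95% counting intervals. The monocyte Prog ratio moves from -1.90 to -0.65 while the monocyte Int ratio moves from 0.39 to 0.34.

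In classical monocytes, which enter tissue from blood, Hmox1 was at 102, 58.7, 62.1 and 102 CPM, and the share of cells with a UMI was 48.1%, 56.8%, 47.1% and 65.9%. Their Prog log2 ratio of -0.79 (-1.28 to -0.31) became 0.02 (-0.56 to 0.62) without the highest cell, which held 35 of 76 UMIs in P-LC24, and 0.28 (-0.38 to 0.96) without the 3 highest. Their Int ratio of 0.71 (0.24 to 1.17) was 0.61 (0.12 to 1.10) without it. In patrolling monocytes, which crawl along the vessel wall, Hmox1 was at 350, 54.3, 123 and 75.0 CPM, from 211, 25, 38 and 22 UMIs. Their Prog ratio of -2.69 (-3.35 to -2.09) became -1.61 (-2.37 to -0.90) without the highest cell and -1.35 (-2.26 to -0.51) without the 3 highest. In both subsets the last setting left fewer than 100 UMIs, below the minimum set for a ratio. The share of patrolling monocytes with a UMI was 49.2%, 27.9%, 45.0% and 36.1%, so in this subset, unlike the classical one, both readings were lower in P-HC24. The intervals of these 2 shares in P-LC24 and P-HC24 overlapped. Patrolling cells made up 44.6% of the P-LC24 and 27.9% of the P-HC24 UMIs of both subsets, and giving P-LC24 the subset mix of P-HC24 moved the Prog ratio from -1.89 to -1.57.

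The patrolling monocyte with 129 Hmox1 UMIs, picked after its value was seen, also held many molecules of other stress-response genes among its 18480 UMIs. It carried 74 UMIs of the cystine carrier Slc7a11, 40 of Txnrd1, 22 of Gclm, 15 of Srxn1 and 8 of the heat-shock gene Hspa1a. Its ferritin counts were 285 for Fth1 and 154 for Ftl1, with 2 for Spic, 3 for Blvrb, 6 for Slc11a1, 0 for Slc40a1 and 4 for the globin Hba-a1. The 11 listed NRF2 target genes summed to 20238 CPM in this cell, against a median of 1210 CPM over the monocytes of its library and 2475 CPM in the next highest cell. The other high cells, with 35 and 18 Hmox1 UMIs, had 240 and 389 of Fth1 and 67 and 166 of Ftl1. Their NRF2 target genes summed to 1588 and 2424 CPM. A patrolling cell of P-LC24 with 13 Hmox1 UMIs had 1211 CPM of these genes, 29 UMIs of Fth1 and 94 of Ftl1.

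The cell with 129 Hmox1 UMIs weighed on the NRF2 list as a whole. In monocytes 6 of the 11 listed genes passed the filter for Prog, with 0 higher and 4 lower by more than 1.2-fold, against 19.9% and 39.4% of all compared genes, and a median log2 ratio of -0.44. Without the highest Hmox1 cell of each library 4 could be compared, 1 higher and 1 lower, with a median of -0.06. Slc7a11 went from -1.95 on 119 and 38 UMIs to -0.56 (-1.23 to 0.09) on 45 and 38 UMIs. Gclc went from -0.98 (-1.52 to -0.45) on 80 and 50 UMIs to -0.03 (-0.66 to 0.61) on 40 and 49 UMIs. For Int 0 of 5 were higher and 4 of 5 lower, against 20.7% and 22.6%, with a median of -0.57, or -0.54 without those cells.

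In macrophages Hmox1 was even between the arms at each time. Its level was 65.4 (52.7 to 80.2), 65.0 (59.9 to 70.5), 88.8 (75.3 to 104) and 80.3 (75.5 to 85.4) CPM. These levels came from 92, 584, 153 and 1023 UMIs. The log2 ratio was -0.01 (-0.33 to 0.32) for Prog and -0.15 (-0.39 to 0.11) for Int, and 0.44 (0.06 to 0.83) for LC and 0.30 (0.16 to 0.45) for HC. Both week 32 libraries were thus above both week 24 libraries, and the arms lay close together at each time. A single I-LC32 macrophage held 22 of the 153 UMIs there. Without the highest cell of each library the levels were 60.9, 63.9, 78.3 and 79.6 CPM. LC was then 0.36 (-0.05 to 0.78), an interval that held both signs, and HC was 0.32 (0.17 to 0.47). The share of macrophages with a UMI was 63.0%, 68.0%, 76.1% and 72.5%. The summed level of 10 dissociation and stress genes such as Fos, which respond to tissue digestion, moved with the week as well. It was 4384, 5519, 7161 and 10562 CPM, and its part in the Hmox1 levels was not tested. Among macrophages with Gata6 the Prog ratio was -0.06 and the Int ratio 0.02.

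Set against monocytes of the same library, Hmox1 in macrophages had log2 ratios of -1.70 (-2.06 to -1.36), 0.19 (-0.13 to 0.52), 0.32 (-0.02 to 0.66) and -0.21 (-0.53 to 0.12), and the interval held 0 in all but P-LC24. Without the highest cell of each class P-LC24 had 60.9 CPM in macrophages and 119 CPM in monocytes. Macrophages held 20.1%, 66.3%, 35.9% and 72.3% of the Hmox1 UMIs of all gated cells and monocytes 62.7%, 10.8%, 34.7% and 6.15%. Those shares follow cell number as well as level, since macrophages were few in the libraries of the low cholesterol arm. Neutrophils, at 67.7, 53.2, 62.7 and 104 CPM, were at about the macrophage level on far fewer UMIs.

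Blvrb, the gene of biliverdin reductase B, set macrophages furthest above monocytes among the 5 members with enough UMIs for a ratio. It was at 185 (163 to 209), 289 (278 to 300), 240 (218 to 265) and 289 (280 to 298) CPM in macrophages and at 58.5, 61.2, 67.8 and 58.8 CPM in monocytes. The ratio of macrophages to monocytes was 3.16-fold to 4.91-fold and above 1 in 4 of 4 libraries. B cells, at 65.2 to 81.3 CPM, were above monocytes in 4 of 4 libraries, and T cells, at 7.5 to 19.9 CPM, were far below. Within macrophages P-LC24 was the low library, and P-HC24 and I-HC32 were alike.

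The Blvrb log2 ratio in macrophages was 0.64 (0.46 to 0.83) for Prog and 0.27 (0.12 to 0.42) for Int, with 0.38 for LC and 0.00 for HC. In monocytes it was 0.06 for Prog and -0.20 for Int. Among macrophages with Gata6 the Prog ratio was 0.67 and the Int ratio 0.11, and among those without Gata6 they were 0.57 and 0.83. Prog was therefore similar in cells with and without a Gata6 UMI, and Int was larger in those without. Cells without a Gata6 UMI numbered 22, 120, 23 and 117, and lacking a UMI does not make them a separate kind of macrophage. Prg4, a peritoneal gene, was in 35 of 49, 387 of 402, 53 of 68 and 576 of 589 macrophages without Slc40a1. Gata6 was in 32, 283, 48 and 473 of the same cells. The make-up of cells without a Gata6 UMI may thus differ between libraries. P-LC24 macrophages also carried the most erythroid transcripts, a summed 4972 CPM of 6 genes against 503, 819 and 348 CPM in the others, and erythroid cells themselves had 195 to 423 CPM of Blvrb. The part of these transcripts in the Blvrb levels was not tested.

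The ferritin chains were the most abundant members. Ftl1, the light chain, was at 4782, 5938, 5713 and 5999 CPM in macrophages, 3742, 4057, 4345 and 3541 CPM in monocytes and 3865, 5052, 4960 and 4203 CPM in neutrophils. Fth1, the heavy chain that oxidises iron, was at 3183, 3838, 3279 and 3842 CPM in macrophages, 3600, 3428, 3567 and 3903 CPM in monocytes and 6100, 7540, 6631 and 5124 CPM in neutrophils. Macrophages were thus above monocytes in Ftl1 in 4 of 4 libraries, with log2 ratios of 0.35 to 0.76, while Fth1 lay between -0.18 and 0.16. Both chains together made up 0.797% to 0.984% of macrophage UMIs, 0.734% to 0.791% of monocyte UMIs and 0.289% to 0.450% of B cell UMIs.

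The balance of the chains ordered the cell classes. Macrophages had 1.5, 1.55, 1.74 and 1.56 Ftl1 UMIs per Fth1 UMI, monocytes 1.04, 1.18, 1.22 and 0.907. Neutrophils had 0.634, 0.670 and 0.748 in the 3 libraries with at least 20 of them, T cells 0.595 to 0.799, dendritic cells 0.454 to 0.731 and B cells 0.273 to 0.342. Macrophages and B cells stood at the ends of this order among these classes in each library, and neutrophils, T cells and dendritic cells overlapped. The small class of mast cells or basophils did not keep to it. It had 1.92 (1.59 to 2.32) in I-LC32, above macrophages, but 0.939 in P-HC24 and 0.756 in I-HC32. Patrolling monocytes of P-HC24 reached 1.53, above 1.06, 1.25 and 0.987 in the other libraries and near the macrophage values. Ftl1 has a near-identical copy, Ftl1-ps1, which was read at 16.4 to 39.5 CPM in macrophages, and reads shared between them cannot be placed.

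**Figure D4:**
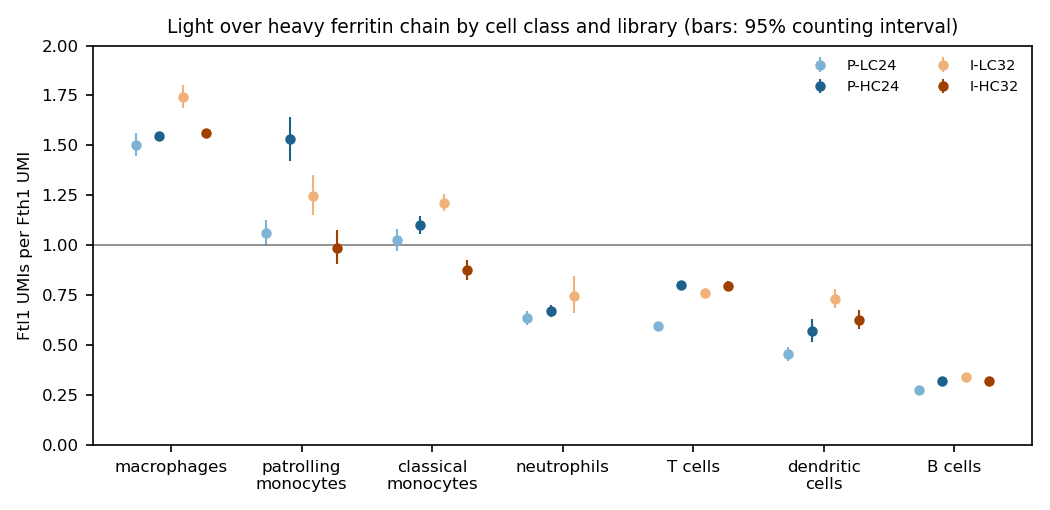
Ftl1 UMIs per Fth1 UMI in 7 cell classes, with 1 point per library and 95% counting intervals. Macrophages lie at 1.5 to 1.74 and B cells at 0.273 to 0.342, with monocytes and the other plotted classes between them in each library.

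For Prog the Ftl1 log2 ratio was 0.31 (0.28 to 0.35) and the Fth1 ratio 0.27 (0.22 to 0.32) in macrophages. The same direction was read in cells with little part in iron recycling. In B cells Ftl1 was 620, 1091, 992 and 1054 CPM and Fth1 2269, 3404, 2904 and 3284 CPM, with Prog ratios of 0.82 and 0.59. In T cells the Prog ratios were 0.94 and 0.52, in dendritic cells 0.60 and 0.27, and in neutrophils 0.39 and 0.31. P-LC24 was the lowest library for both chains in B cells. Monocytes differed less, with 0.12 for Ftl1 and -0.07 for Fth1, and patrolling monocytes had 0.22 and -0.31 (-0.41 to -0.20). Taken per cell and with no correction for depth, the macrophage ratios were 0.09 for Ftl1 and 0.05 for Fth1.

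For Int the macrophage ratios were 0.07 for Ftl1 and 0.23 (0.19 to 0.27) for Fth1, and the monocyte ratios -0.29 and 0.13. Within the high cholesterol arm both chains held level in macrophages, with HC ratios of 0.01 and 0.00. Among macrophages with Gata6 the Prog ratios were 0.41 for Ftl1 and 0.49 for Fth1, and among those without they were 0.07 and -0.21. The Fth1 ratio thus had one sign in cells with Gata6 and the other in cells without.

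Slc40a1, the gene of the iron exporter ferroportin, was read in 10 of 1118 macrophages and in 1 of 526 monocytes. Macrophages had 51, 7, 24 and 18 UMIs, or 36.3, 0.78, 13.9 and 1.41 CPM, and monocytes had 1, 0, 0 and 0 UMIs. The macrophage UMIs came from 5, 1, 3 and 1 cells. Neutrophils, by contrast, had 147, 100, 21 and 9 UMIs, or 276 (234 to 325), 177 (144 to 216), 219 (136 to 335) and 117 (53.4 to 222) CPM. A UMI was found in 63.9%, 49.6%, 39.4% and 33.3% of them, and B cells were at 0.387 CPM or less. The Prog log2 ratio in neutrophils was -0.64 (-1.02 to -0.26). Neutrophils held 65.0%, 85.5%, 43.8% and 32.1% of the gated Slc40a1 UMIs, from 119, 123, 33 and 18 cells, and macrophages held 22.6%, 5.98%, 50% and 64.3%. At week 32 the larger share was thus that of macrophages, from 3 cells and 1 cell.

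The 10 macrophages with Slc40a1, of 1118, differed in make-up from the other cells of the gate. None had a UMI of Gata6 or Prg4, the peritoneal macrophage genes, and 0 of 836 macrophages with Gata6 had Slc40a1, which allows a share of up to 0.359% of cells with a UMI and sets no limit on cells that express it. Vcam1, a gene of red pulp macrophages, was found in 7 of them and in 14 of the 1108 other macrophages. Spic was found in 5 and 11, Clec4f in 2 and 0 and Cd163 in 1 and 37. Hmox1 was found in 6 of the 10 and in 784 of the 1108, not a higher share. Their Spic level was 173 CPM, from 24 UMIs of which 1 cell held 17, against 0.567 CPM in the 1108 other macrophages. Hmox1 was at 158 against 74.1 CPM and Blvrb at 324 against 279 CPM, while Fth1 was lower, at 2281 against 3773 CPM, and Ftl1 was at 5325 against 5891 CPM. The cells were chosen by their Slc40a1 count, so these are descriptions. They were also shallower, with a median of 9478 against 21163 UMIs, and 7 of 10 had under 2% mitochondrial UMIs against 48 of 1108.

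The 2 macrophages with Clec4f were both among them. One, in P-LC24, had 38 of the 51 Slc40a1 UMIs of its library, with 4 of Clec4f and 33 of Cd5l among 11105 UMIs. Its mitochondrial share was 0.162%. The other, in I-HC32, had all 18 Slc40a1 UMIs of its library, with 17 of Spic, 41 of Clec4f and 85 of C1qa. The Slc40a1 signal of macrophages in P-LC24 and I-HC32 thus came mostly or wholly from a single cell that carried the Kupffer cell marker.

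Slc11a1, the phagosomal transporter, changed little in macrophages, at 123, 123, 124 and 134 CPM with log2 ratios from -0.00 (Prog) to 0.12 (HC). It was higher in patrolling monocytes, at 202, 210, 178 and 157 CPM, than in classical monocytes, at 83.0, 73.8, 84.7 and 67.2 CPM. Patrolling cells were above classical cells in 4 of 4 libraries. In all monocytes it was at 136, 111, 98.5 and 95.2 CPM, with ratios of -0.30 (-0.60 to 0.01) for Prog and -0.47 (-0.76 to -0.17) for LC. In neither subset taken alone was P-LC24 the highest library. In neutrophils it was at 111, 206, 146 and 90.8 CPM, and the Prog ratio was 0.89 (0.43 to 1.37).

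Cd163, the haemoglobin scavenger receptor, had a UMI in 38 of 1118 macrophages and was at 2.13, 2.00, 4.06 and 1.57 CPM there. Classical monocytes were at 1.34, 10.1, 7.91 and 26.6 CPM, from 20 of 312 cells, and 0 of 207 patrolling monocytes had a UMI, which allows a share of up to 1.45% of cells with a UMI, again with no limit on expression. The highest level was in dendritic cells, at 6.39, 23.2, 33.5 and 46.2 CPM, from 31 of 136 cells. In both of these classes P-LC24 was the lowest and I-HC32 the highest library, on few UMIs. Classical monocytes had 1, 12, 14 and 17 UMIs, and a single cell held 10 of the 12 in P-HC24 and 10 of the 17 in I-HC32. Dendritic cells had 4, 7, 24 and 26 UMIs, with overlapping intervals of 21.5 to 49.8 CPM in I-LC32 and 30.2 to 67.7 CPM in I-HC32. In T cells 10 of 4589 cells had a UMI.

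Spic, the transcription factor of iron-recycling macrophages, was at 5.69, 0.445, 1.74 and 1.81 CPM in macrophages, from 16 of 1118 cells. Patrolling monocytes were at 11.6, 4.34, 25.8 and 3.41 CPM, from 11 of 207 cells, and P-LC24 and I-LC32 were above P-HC24 and I-HC32, on 1 to 8 UMIs per library. B cells had 3.14, 1.51, 2.72 and 1.48 CPM, with a UMI in 312 of 17364 cells, and the same pair of libraries was higher. In T cells 5 of 4589 cells had a UMI. Neutrophils had 0 UMIs of Spic and of Cd163.

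Of the 8 members, 5 passed the filter for a ratio in macrophages and in monocytes, which asked that 10% or more of the cells in one of the libraries compared had a UMI and that both held 100 UMIs or more between them. Slc40a1, Cd163 and Spic did not, and Hmox1, Blvrb, Ftl1, Fth1 and Slc11a1 did. A ratio past 1.2-fold was counted as higher or lower without a test. In macrophages 3 of 5 were higher for Prog (Blvrb, Ftl1 and Fth1), where 16.5% of all compared genes were higher, and 0 were lower, where 45.5% were. For Int 1 of 5 was higher (Blvrb), against 14.5%, and 0 lower, against 37.4%. The median ratio of all compared genes in macrophages was -0.21 for Prog and -0.15 for Int, and Hmox1 lay at the median for Int. For LC 2 of 5 were higher, against 24.7%, and for HC 1 of 5, against 28.9%. None was lower for LC or HC, where 22.9% and 9.94% of all genes were.

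In monocytes 0 of 5 were higher for Prog, against 19.9%, and 2 of 5 were lower (Hmox1 and Slc11a1), against 39.4% of all genes, and Hmox1 chose this comparison. For Int 1 was higher (Hmox1), against 20.7%, and 1 was lower (Ftl1), against 22.6%, which is near what all genes showed. For LC 0 were higher, against 23.8%, and 2 were lower, against 35.3%. For HC 1 was higher, against 24.6%, and 0 lower, against 18.9%. The Prog comparisons of both classes use the same libraries, and so do those of Int.

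Set against monocytes within each library, 2 of the 5 members compared, Blvrb and Ftl1, were higher in macrophages by more than 1.2-fold in 4 of 4 libraries. Of all compared genes 23.7%, 22%, 21.1% and 25.2% were higher in the 4 libraries and 52.1%, 54.4%, 46.8% and 50.4% were lower. None of the 5 members was lower in 4 of 4. The median log2 ratio over the libraries was 2.03 for Blvrb and 0.47 for Ftl1.

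**Figure D5:**
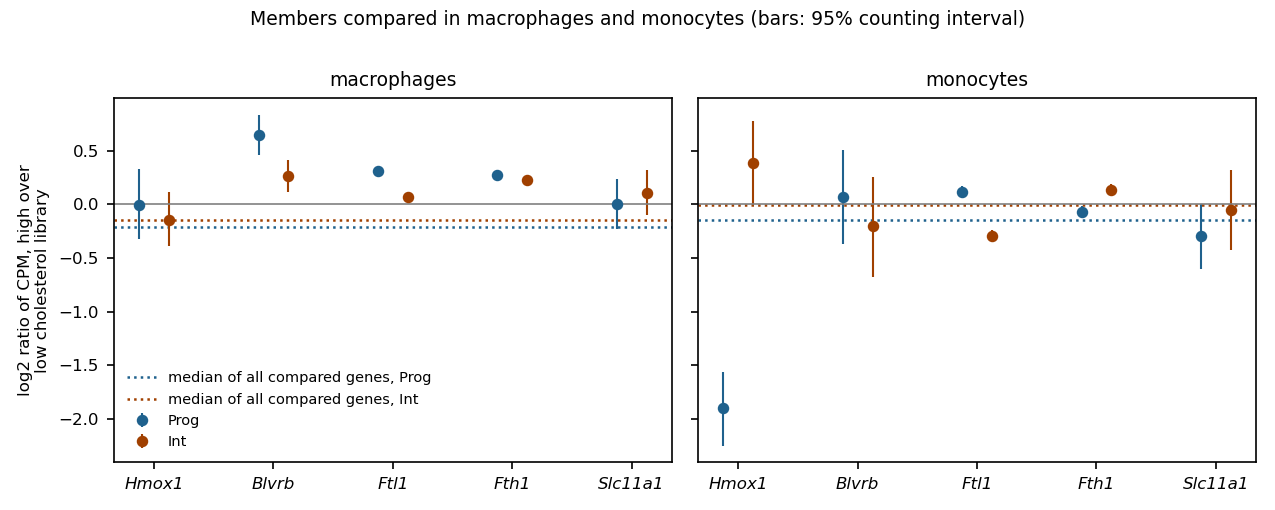
Log2 ratios of Hmox1, Blvrb, Ftl1, Fth1 and Slc11a1 for Prog and Int in macrophages and monocytes, with 95% counting intervals and a dotted line at the median of all compared genes. Hmox1 in monocytes stands alone at -1.90 for Prog, and Blvrb in macrophages is highest at 0.64.

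The rest of the pathway was read from lists that leave out the 8 members. Of 10 haem handling genes 8 were compared in macrophages, and for Prog 0 were higher and 6 lower, against 16.5% and 45.5% of all genes, with a median of -0.39 against -0.21. The haem exporter Flvcr1 was at 22.0 and 8.57 CPM in P-LC24 and P-HC24, a log2 ratio of -1.36, and at 19.2 and 8.01 CPM for Int, a ratio of -1.26. Flvcr1 was thus the haem handling gene furthest apart in both, while the other genes of the list lay within 1.5-fold. For Int 1 of 8 was lower and 0 higher, against 37.4% and 14.5%, with a median of -0.17. The most abundant gene was the haemopexin receptor Lrp1, at 292, 222, 250 and 220 CPM.

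In monocytes 7 haem handling genes were compared for Prog, 2 higher and 3 lower, against 19.9% and 39.4% of all genes, with a median of -0.05. The repressor of Hmox1, Bach1, was at 249 and 159 CPM, and its activator Nfe2l2, which codes for NRF2, at 456 and 300 CPM, with ratios of -0.65 and -0.60. Both regulators of Hmox1 were therefore lower in P-HC24 monocytes, along with Hmox1. For Int 0 of 8 were higher and 2 lower, against 20.7% and 22.6%, with Keap1, which holds NRF2 back, at -0.97. In macrophages against monocytes, Bach1 was lower in 4 of 4 libraries, with ratios from -0.57 to -0.99, and Nfe2l2 likewise, from -0.82 to -1.05. Of all compared genes 46.8% to 54.4% per library were lower by more than 1.2-fold in that comparison.

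Of 18 genes of iron uptake, export and sensing 8 were compared in macrophages for Prog, 1 higher and 3 lower, against 16.5% and 45.5% of all genes, with Ireb2, an iron regulatory protein that binds the leader hairpins, at -0.90. For Int 9 were compared, 1 higher and 4 lower, against 14.5% and 37.4%, with the ferroxidase Cp at 0.63 and Aco1, the other iron regulatory protein, at -0.59. In monocytes 5 were compared in both, with 0 higher and 2 lower for Prog, against 19.9% and 39.4%, where Fbxl5, which marks Ireb2 protein for decay, was at -0.63. For Int 2 were higher and 0 lower, against 20.7% and 22.6%. The iron chaperone Pcbp2 was the most abundant, at 324, 245, 261 and 229 CPM in macrophages and 419, 320, 306 and 324 CPM in monocytes.

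Of 9 haem synthesis genes 4 were compared in macrophages for Prog, 1 higher (Urod, at 0.61) and 0 lower, against 16.5% and 45.5% of all genes. For Int 5 were compared, 2 higher and 2 lower, against 14.5% and 37.4%, with Cpox at 0.79. In monocytes 0 of the 9 passed the filter, and Urod led there at 13.3, 24.0, 20.2 and 21.4 CPM. Of the 11 NRF2 targets 8 were compared in macrophages, with 1 higher and 4 lower for Prog, against 16.5% and 45.5%, and 2 higher and 1 lower for Int, against 14.5% and 37.4%. The glutathione synthesis subunits Gclc and Gclm went apart for Prog, at 0.96 and -0.63, and Me1 was at -1.53 for Prog and 1.96 for Int, the latter on 6.39 and 24.8 CPM. The pentose phosphate enzyme G6pdx was at -0.70 in macrophages for Prog and -0.60 in monocytes for Int. In monocytes Gclc was at -0.98 for Prog, or -0.03 without the highest Hmox1 cells, and Slc7a11 at -1.13 for Int. Prdx1 led the list in macrophages, at 429, 416, 466 and 434 CPM, and Gsr in monocytes, at 626, 583, 651 and 440 CPM.

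The genes whose levels ran most like those of 4 members were taken from 6777 genes over 31 sums of a class in a library, by Pearson's r of log2(CPM + 1). These sums share libraries and differ in depth, so r is a description. Hmox1 ran with C3 (0.94), Abcd2 (0.92) and Gm21188 (0.91), and Slc40a1 with Scrg1 (0.91), Chil1 (0.88) and Nlrp12 (0.87). Cd163 ran with Mgl2 (0.97), Cd209a (0.90) and Tmem150b (0.89). The likest genes to Spic, Nlrc4 (0.73), Ldlrad3 (0.68) and Gm35154 (0.66), followed it less closely.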

How the data were processed

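Liver cells of 4 pooled samples, 1 library per condition, were profiled by droplet single-cell RNA sequencing of transcript 3' ends. The authors deposited matrices of UMI counts per gene and barcode, and their processing notes name Cell Ranger 9.0.1, Seurat 5.3 and the build GRCm39. The deposited matrices held 7035, 7946, 9828 and 8389 barcodes (P-LC24 first, then P-HC24, I-LC32, and I-HC32 last), with 50941106, 73837023, 79215858 and 89257239 UMIs.

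Cells with at least 500 UMIs and 300 genes and at most 10% mitochondrial UMIs were kept, 26824 in all, over genes seen in at least 3 barcodes. Classes were gated on raw marker UMIs, none of them a member. A macrophage had at least 2 UMIs of Adgre1, 3 of 7 macrophage genes and 1 of Csf1r. A monocyte had at least 1 of Csf1r and 3 of Lyz2, at most 2 of those 7 genes and none of Gata6, Flt3 or Retnlg. Its UMIs of S100a8 and S100a9 together were fewer than 20. Classical monocytes had at least 2 UMIs of Ly6c2 and Ccr2 and more of them than of Ace, Treml4 and Eno3. Patrolling monocytes had at least 1 UMI of Ace, Treml4 and Eno3 and at least as many of them as of Ly6c2 and Ccr2. Cells with over 5 B cell or over 2 T cell UMIs, and the 72 to 199 cells per library in several gates, were left out, and doublets were not otherwise removed.

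UMIs were summed per class and library and divided by the class total. Intervals were exact Poisson, exact conditional binomial for ratios and Clopper-Pearson for shares. The script was tested on simulated data. No test was made, since there is 1 library per condition. A share of 0 was bounded by 3 counts. Names followed a fixed rule: all members, list genes past 1.5-fold, the most abundant gene of each list and the 3 likest genes of 4 members. One result under this rule is not reported here. The members and lists were chosen with earlier results of these data known. Alternatives covered filters, gates, scaling, thinning, doublet scores, subsets and the highest Hmox1 cells. The scripts ran on scanpy 1.11.5, pandas 2.3.3, scipy 1.17.1 and numpy 2.4.6 under Python 3.11.15, with the GENCODE vM39 annotation for sequences.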

Additional observations from a re-analysis of the deposited data

Results flagged for a closer look

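Hmox1 in monocytes had opposite signs in the 2 comparisons of the arms, with a log2 ratio of -1.90 for Prog and 0.39 for Int. The Int interval, -0.01 to 0.78, held 0. In classical monocytes the values were -0.79 and 0.71, and in patrolling monocytes both were negative, at -2.69 and -0.71. The patrolling Int ratio had an interval of -1.54 to 0.08, which held 0. It rested on 22 and 38 UMIs, below the minimum set for a ratio. With both subsets weighted equally the Int ratio was -0.066. With 1 library per condition the difference between the comparisons was not tested. Without the highest Hmox1 cell of each library the classical values were 0.02 and 0.61.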

How the results depend on the processing

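Of 139 alternative values, 111 were labelled as unchanged and 26 as moved, and 2 turned the sign of the monocyte Int ratio of Hmox1. The unchanged label was wide, so it does not mean that a value was close to the one reported. For Hmox1 it took in a monocyte Int ratio of 0.71, where the reported value had a counting interval of -0.01 to 0.78. It also took in all 16 macrophage Prog ratios, from -0.23 to 0.25, where that interval was -0.33 to 0.32. A median macrophage over monocyte ratio of -0.34 was labelled unchanged as well. Ratios of Hmox1 in macrophages, which lay near 0, crossed 0 under several settings. The Hmox1 log2 ratio in monocytes for Prog (-1.90) was -1.52 with every cell weighted equally, -0.79 in classical and -2.69 in patrolling monocytes alone, -1.12 without the highest cell and -0.65 without the 3 highest cells of each library. For Int (0.39) it was -0.066 with both subsets weighted equally and -0.71 (-1.54 to 0.08) in patrolling monocytes alone. That last value rested on 22 and 38 UMIs, below the minimum set for a ratio. In macrophages for Int (-0.15) it was 0.22 with no B or T cell UMI allowed, 0.25 thinned to 5000 UMIs per cell, -0.40 without Gata6 and 0.19 without the 3 highest cells. The median macrophage over monocyte ratio of Hmox1 (-0.01) was 0.94 as UMIs per cell.

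The members past 1.2-fold in monocytes for Prog (2) were 1 with totals that leave out mitochondrial and ribosomal genes, 1 at 1.5-fold and 1 without the 3 highest cells. For Int (2) there was 1 with equal cell weights, 1 when thinned and 0 at 1.5-fold. In macrophages for Prog (3) there was 1 as UMIs per cell and 1 at 1.5-fold. For Int (1) there were 0 with a mitochondrial limit of 20%, with doublet scores removed, with equal cell weights, when thinned and at 1.5-fold, 2 with no limit on B and T cell genes and with median-of-ratios scaling, and 3 with a minimum of 20 UMIs. The cause was not tested for any of these changes, beyond the cells or genes that a setting leaves out.

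No paired analysis was possible because each condition has 1 library. The macrophage over monocyte ratio of Slc40a1 was not run under alternatives, since monocytes of 3 libraries had 0 UMIs. Slc40a1, Cd163 and Spic were too few in macrophages and monocytes for a ratio at this depth.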

Other observations

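The dissociation and stress list, which holds immediate early and heat-shock genes, was the list furthest from all genes in macrophages. For Prog 7 of 10 genes were higher and 0 lower, against 16.5% and 45.5% of all genes, with a median log2 ratio of 0.55, and for Int 8 of 10 were higher and 0 lower, against 14.5% and 37.4%, with a median of 0.55. Hspa1a was at 1.77, Hspa1b at 1.12, Ier2 at 0.94 and Junb at 0.93 for Prog, and Hspa1b at 1.31, Ier2 at 0.96, Jun at 0.89 and Atf3 at 0.66 for Int. Fos was the most abundant, at 1730, 1464, 2382 and 3185 CPM. In monocytes 0 of 8 were higher and 3 lower for Prog, against 19.9% and 39.4%, with Fos at -0.86 and Jun at -0.72. For Int 2 of 9 were higher and 3 lower, against 20.7% and 22.6%, with Fosb at -0.90, Fos at -0.88 and Atf3 at -0.66. Junb was the most abundant there, at 991, 940, 1552 and 1322 CPM. Fos, Fosb and Egr1 were higher in macrophages than in monocytes in 4 of 4 libraries, where 21.1% to 25.2% of all compared genes per library were higher.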
